A study of Mus musculus with 26 samples.

Results

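The mir-200 family is a set of 5 microRNAs, mmu-mir-200a, mmu-mir-200b, mmu-mir-429, mmu-mir-200c and mmu-mir-141, which were followed here in 26 small RNA libraries of mouse hippocampus. All 5 were found by name among the 1054 miRNA entries of the deposited count table, and all 5 were among the 463 entries that passed a filter on low counts. The family was chosen by its levels in control mice, which earlier results of these data had lower in the dorsal than in the ventral hippocampus (dHC and vHC), so that difference is described below without a test. The same difference after swim stress, and the effects of swim and of processing block, were tested. Whether the swim libraries also entered the choice is not known, so the swim test is not independent support for the region difference.

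The mice were 2 to 3 months old male C57BL/6J animals without any genetic change. Control mice stayed in their home cage, and swim mice were forced to swim in 18 °C water for 6 min and were killed 45 mins after the swim began. Both parts of the hippocampus were dissected from both hemispheres, giving 8 control vHC, 6 control dHC, 6 swim vHC and 6 swim dHC libraries in 3 processing blocks, each of which held at least 2 libraries of every group. The labels do not tie a dHC library to the vHC library of the same mouse, so regions were compared as unpaired samples, and p-values measure the spread between these libraries.

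The total of miRNA counts per library ran from 465387 to 4819724 with a median of 2614270. Library 24 of control dHC was the lowest, and the other 25 held at least 1357739. The neuronal miRNA mir-9 marked the tissue at a mean of 39496 CPM for its entry mmu-mir-9-1. Levels are given in CPM throughout, counts relative to the miRNA total of the library after edgeR's TMM scaling. No 2 of the 26 libraries held identical values.

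MicroRNAs are short RNAs that guide Argonaute proteins to messenger RNAs, which they recognise mainly through the seed, bases 2 to 8 of the mature strand. The mir-200 family is best known from epithelia, where it represses Zeb1 and Zeb2, transcription factors that turn off epithelial genes such as E-cadherin. In the nervous system it is known from olfactory neurons and their progenitors. Its members are made from 2 genomic clusters, in each of which neighbouring hairpins lie on the same strand.

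The 3p strands are the sequences that define the family, and they are shown because the members share seeds across the clusters. They were taken from RefSeq on GRCm38.p6 and matched for 5 of 5 members. Capitals mark the seed.

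mmu-miR-200b-3p: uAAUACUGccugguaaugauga

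mmu-miR-429-3p: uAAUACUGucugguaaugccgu

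mmu-miR-200c-3p: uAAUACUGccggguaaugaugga

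mmu-miR-200a-3p: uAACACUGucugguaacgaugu

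mmu-miR-141-3p: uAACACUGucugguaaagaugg

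The seed AAUACUG was shared by mir-200b, mir-429 and mir-200c, and 3 of the 1679 mature mouse miRNAs listed by RefSeq carried it (0.179%). The seed AACACUG was shared by mir-200a and mir-141, which were the 2 of 1679 that carried it (0.119%). Counted from 1 at the 5′ end, mir-200a and mir-141 differed by C17A and U22G and were identical over their first 16 bases. Over the 22 bases compared, mir-200b and mir-200c differed by U11G and A22G and were identical over their first 10. The closest relative by sequence of mir-200a and of mir-200b thus lay in the other cluster.

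The first cluster lies on the minus strand of chromosome 4 (GRCm38). It holds mir-200b at 156055681 to 156055750, mir-200a at 156054896 to 156054985 and mir-429 at 156053905 to 156053987. These 3 hairpins span 1846 bases, with gaps of 695 and 908 bases between them. The GENCODE annotation places each in an intron of Ttll10, a gene of the tubulin tyrosine ligase-like group. It also places mir-200a and mir-200b in an intron, and mir-429 in an exon, of the noncoding transcript Gm13648.

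The second cluster lies on the minus strand of chromosome 6, with mir-200c at 124718322 to 124718390 and mir-141 at 124717914 to 124717985. It spans 477 bases with a gap of 336 bases. Both hairpins are in an intron of the noncoding antisense gene Gm15884, and mir-141 also overlaps an exon of the unconfirmed transcript Gm29008. The nearest protein-coding genes are Phb2, at a distance of 964 bases from mir-141, and Ptpn6.

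The deposited counts do not fully separate these relatives. Counts of mir-200b or mir-200c were not whole in 17 libraries, and in 17 of 17 both had the same remainder. For mir-200a and mir-141 this was so in 12 of 12 libraries. The count of mir-429 was not whole in 6 libraries. Remainders of this kind arise where a read is divided over several entries, and how many reads were divided is not known, so the levels of the clusters are not independent of each other. The table also does not separate the 5p and 3p strands of a hairpin.

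The family was a small part of hippocampal miRNA. It took up between 0.0120% and 0.0350% of miRNA counts in the 12 dHC libraries (median 0.0217%) and between 0.0365% and 0.0706% in the 14 vHC libraries (median 0.0519%). The most abundant member, mir-200b, had a mean of 163 CPM over the 26 libraries and ranked at position 222 of 463 entries by mean level. It was followed by mir-200a with a mean of 100.9 CPM (position 247), mir-429 with 85.4 CPM (255), mir-200c with 23.5 CPM (313) and mir-141 with 6.05 CPM (387). The mature strands are 22 or 23 bases long, so these levels need no correction for length.

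Not all neighbours in this order were apart. In single libraries mir-200b was higher than mir-429 in 26 of 26 and higher than mir-200a in 24 of 26. The count of mir-200a exceeded that of mir-429 in 16 of 26 libraries, so these members were not ordered by level. By contrast, mir-429 exceeded mir-200c and mir-200c exceeded mir-141 in 26 of 26. The counts behind mir-141 were low, between 1.5 and 33 per library, and those of mir-200c lay between 6.5 and 100.5. The values of mir-200b rested on 41.5 to 776 counts.

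**Figure D1:**
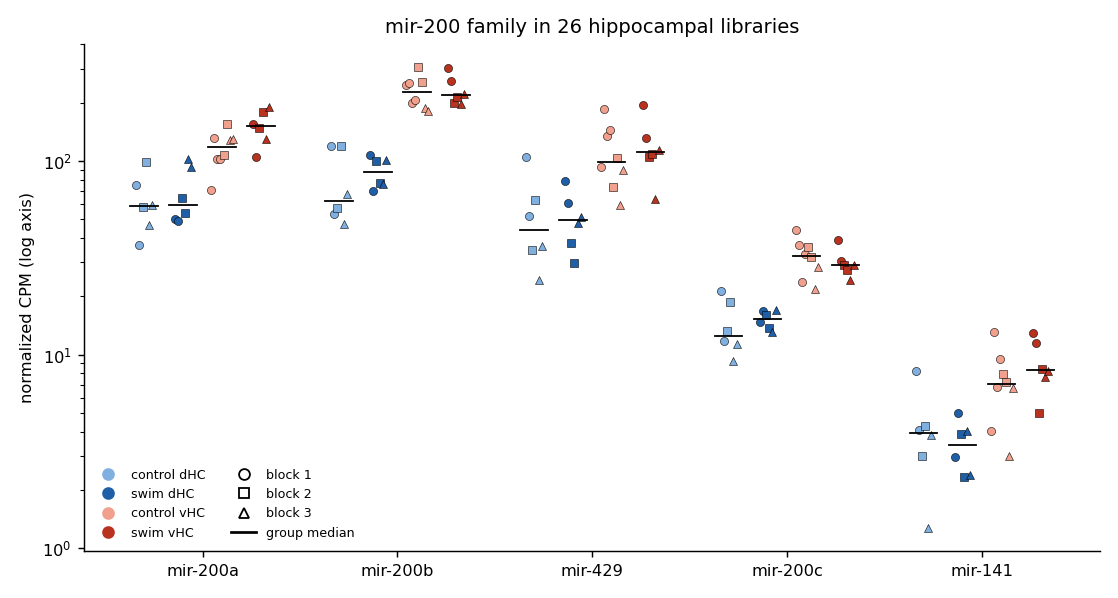
Normalized CPM (log axis) of each family member in each of the 26 libraries, colored by group, with the symbol giving the processing block and the bar the group median. For mir-200b the 12 dHC libraries reach at most 119 CPM and the 14 vHC libraries start at 181 CPM.

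After swim, all 5 members were lower in dHC than in vHC, from 1.93-fold for mir-200c to 2.60-fold for mir-200b (log2 differences from -0.94 to -1.38). The test was edgeR's quasi-likelihood test with block as covariate and Benjamini-Hochberg adjustment over the 463 entries. Of these entries 94 (20.3%) had an adjusted p under 0.05, and 59 (12.7%) were lower in dHC. The median log2 difference was -1.21 over the 5 members and -0.00015 over the 463 entries. In bulk tissue, fewer cells that express a miRNA and less of it per cell cannot be told apart.

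In the chromosome 4 cluster, mir-200b was between 70.2 and 108 CPM in the swim dHC libraries (median 88.2) and between 198 and 303 CPM in swim vHC (median 218). Every dHC library lay below every vHC library. The mean was 88.6 ± 16.1 CPM in dHC and 232 ± 41.0 CPM in vHC (SD, n = 6 each), and the fitted log2 difference was -1.38 (SE 0.19, adjusted p = 4.24e-06 with edgeR).

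The level of mir-200a was between 48.8 and 103 CPM in swim dHC (median 59.1) and between 105 and 190 CPM in swim vHC (median 152). Here the groups did not overlap either, but the highest dHC library (28) and the lowest vHC library (15) were almost level. The log2 difference was -1.15 (SE 0.20, adjusted p = 0.00013 with edgeR).

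For mir-429 the swim dHC libraries ran from 29.7 to 78.5 CPM (median 49.4) and the swim vHC libraries from 63.3 to 194 CPM (median 111). These groups overlapped through 1 library on each side, dHC library 6 with the highest and vHC library 27 with the lowest value of its group. They came from blocks 1 and 3, and within each block the regions were apart. With block in the fit, the log2 difference was -1.21 (SE 0.21, adjusted p = 0.00017 with edgeR).

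In the chromosome 6 cluster, mir-200c was between 13.1 and 16.96 CPM in swim dHC (median 15.3) and between 24.3 and 39.3 CPM in swim vHC (median 29.004). The 6 dHC libraries were close together, with a mean of 15.2 ± 1.60 CPM (SD), against 29.9 ± 5.03 CPM in vHC. The log2 difference of mir-200c, -0.94 (SE 0.17, adjusted p = 0.00018 with edgeR), was the smallest of the 5.

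The level of mir-141 was between 2.34 and 4.99 CPM in swim dHC (median 3.43) and between 5.02 and 12.9 CPM in swim vHC (median 8.32). The regions did not overlap but nearly touched, and the dHC values rested on 3 to 21.8 counts. The log2 difference was -1.24, with an SE of 0.28 that was the largest among the members (adjusted p = 0.0016 with edgeR).

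Every swim dHC library thus lay below every swim vHC library for 4 of 5 members, which was the case for 23 of all 463 entries (4.97%). Ordered from the lowest log2 difference, mir-200b, mir-141, mir-429, mir-200a and mir-200c took positions 6, 7, 8, 11 and 15 of 463. Fitted on the 12 swim libraries alone, in which no control library entered the estimate of the spread, 87 of 440 entries were called. The members then differed by -1.37 (mir-200b), -1.27 (mir-141), -1.22 (mir-429), -1.17 (mir-200a) and -0.95 (mir-200c), with adjusted p between 1.11e-05 and 0.0011.

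**Figure D2:**
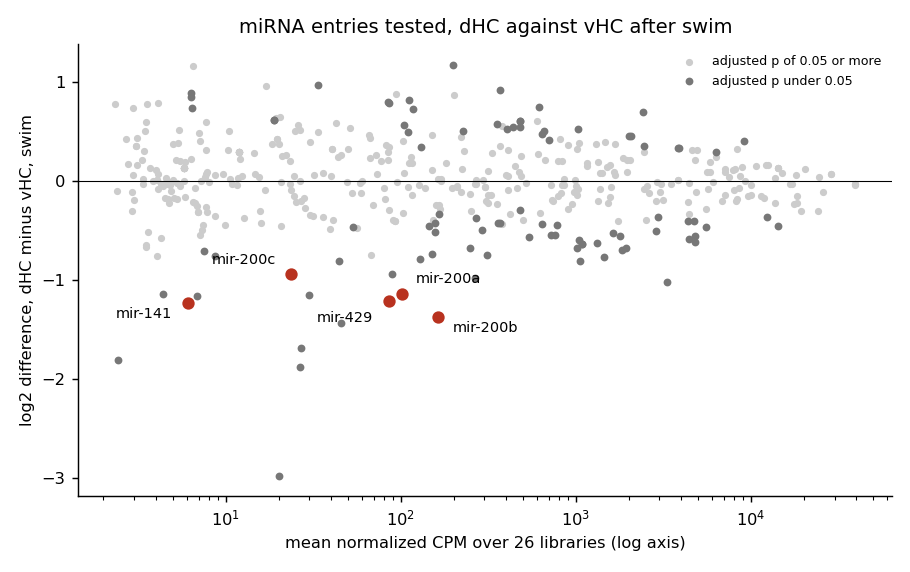
Mean level over the 26 libraries (normalized CPM, log axis) against the log2 difference between dHC and vHC after swim for the 463 entries tested. Dark gray marks an adjusted p under 0.05, and the 5 members, in red, lie between -0.94 and -1.38.

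With no covariate 5 of 5 members were called lower, among 56 entries called, but the calls changed with surrogate variables. With 2 surrogate variables in place of block, the log2 difference after swim was -1.93 for mir-200a (adjusted p = 0.029), -0.85 for mir-200b (adjusted p = 0.32), -1.01 for mir-429 (adjusted p = 0.18), -0.77 for mir-200c (adjusted p = 0.31) and -0.68 for mir-141 (adjusted p = 0.55, all edgeR), so that 1 of 5 members was called among 59 entries. Region accounted for 91.1% of the variance of the second surrogate variable and for 2.01% of the first. Over the 463 entries the median SE rose from 0.17 to 0.42 when these variables replaced block.

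Within blocks, where 2 dHC and 2 vHC libraries of the swim groups could be set side by side, the mean of each member was lower in dHC in 3 of 3 blocks. The difference in mean log2 CPM ran from -1.69 to -1.24 for mir-200b and from -1.46 to -0.68 for mir-200a. It ran from -1.67 to -0.78 for mir-429, from -1.14 to -0.83 for mir-200c and from -1.67 to -1.10 for mir-141. In none of these 15 comparisons did the libraries of the regions overlap, but each set only 2 libraries against 2. How often this held over all entries tested was not counted. The members also share divided reads, so the comparisons are not independent.

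In control mice, the contrast by which the family was singled out, the fitted log2 differences between dHC and vHC were -1.60 for mir-200b, -1.19 for mir-200c, -1.02 for mir-429, -1.003 for mir-200a and -0.76 for mir-141. Level by level, mir-200b was at 47.4 to 119 CPM in dHC (median 62.2) and at 181 to 306 CPM in vHC (median 227). For mir-200a the ranges were 36.8 to 98.9 CPM in dHC (median 58.3) and 71.0 to 156 CPM in vHC (median 118). For mir-429 they were 24.2 to 105 CPM (median 44.2) and 59.2 to 185 CPM (median 98.6).

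In the same mice mir-200c was at 9.23 to 21.2 CPM in dHC (median 12.5) and at 21.7 to 43.8 CPM in vHC (median 32.4), and mir-141 at 1.27 to 8.23 CPM (median 3.94) and 2.99 to 13.2 CPM (median 7.05). The regions did not overlap for mir-200b and mir-200c, as was so for 26 of 463 entries (5.62%), and overlapped for the other members. The highest dHC value was that of library 8 for mir-200b, mir-429, mir-200c and mir-141, and that of the shallow library 24 for mir-200a. Within blocks the dHC mean was lower for each member in 3 of 3 blocks, which was not counted over all entries. The differences in mean log2 CPM went down to -1.77 for mir-200b and up to -0.41 for mir-141.

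The region difference was then compared between swim and control mice by the interaction term. For 0 of 463 entries (0%) the adjusted p was under 0.05, with 21 at an unadjusted p under 0.05, and DESeq2 also called 0. The swim minus control change of the region difference was 0.22 for mir-200b (95% interval -0.31 to 0.75), -0.14 for mir-200a (-0.70 to 0.42) and -0.19 for mir-429 (-0.79 to 0.42). It was 0.24 for mir-200c (-0.24 to 0.73) and -0.48 for mir-141 (-1.27 to 0.32). The interval was widest for mir-141, the member with the fewest counts.

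Swim itself was not detectable in the family. In dHC 0 of 463 entries (0%) passed the test in edgeR and 0 in DESeq2, with 12 at an unadjusted p under 0.05 in edgeR. Mean levels in control and swim dHC were 77.2 ± 33.1 and 88.6 ± 16.1 CPM for mir-200b, 62.3 ± 22.1 and 68.9 ± 23.4 CPM for mir-200a, and 52.5 ± 29.1 and 51.0 ± 17.3 CPM for mir-429 (SD, n = 6 each). For the other cluster they were 14.2 ± 4.66 and 15.2 ± 1.60 CPM for mir-200c and 4.12 ± 2.30 and 3.43 ± 1.05 CPM for mir-141. The log2 differences lay between -0.13 for mir-141 and 0.26 for mir-200b, whose 95% interval ran from -0.13 to 0.66.

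In vHC 0 of 463 entries (0%) passed the test in edgeR and 0 in DESeq2, with 45 at an unadjusted p under 0.05 in edgeR. Mean levels in control and swim vHC were 230 ± 42.8 and 232 ± 41.0 CPM for mir-200b, 116 ± 25.6 and 151 ± 31.3 CPM for mir-200a, and 111 ± 41.4 and 119 ± 42.8 CPM for mir-429 (SD, n = 8 and 6). They were 31.9 ± 7.27 and 29.9 ± 5.03 CPM for mir-200c and 7.30 ± 3.15 and 8.96 ± 2.83 CPM for mir-141. The log2 difference of mir-200a was 0.32 (95% interval -0.06 to 0.70, adjusted p = 0.50 with edgeR). That of mir-141 was 0.34 (-0.15 to 0.83) and that of mir-429 was 0.25 (-0.15 to 0.66), while those of mir-200b and mir-200c were 0.05 and -0.05. The swim comparisons share their control libraries with the control region comparison and with the interaction.

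**Figure D3:**
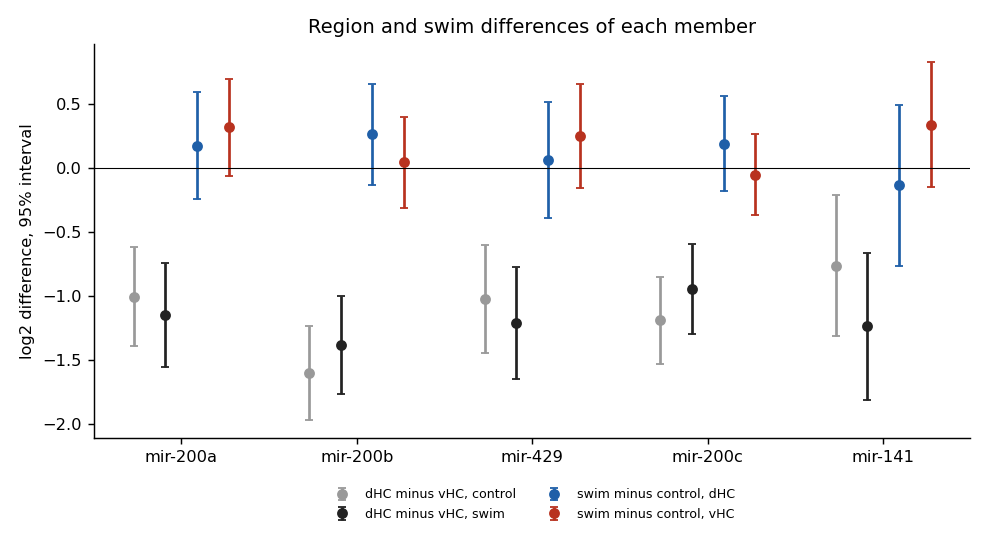
Fitted log2 difference with its 95% interval for each member, between regions in control mice (gray) and after swim (black), and between swim and control in dHC (blue) and vHC (red). The region differences lie between -1.60 and -0.76, and the 10 intervals of swim against control include 0.

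The clusters could be compared with each other within each library, where depth and normalization drop out. The summed level of mir-200a, mir-200b and mir-429 was 208 ± 33.8 CPM in swim dHC and 503 ± 87.5 CPM in swim vHC, against 192 ± 77.5 and 456 ± 63.9 CPM in the control groups (SD). The sum of mir-200c and mir-141 was 18.6 ± 2.07 and 38.9 ± 7.34 CPM after swim and 18.3 ± 6.73 and 39.2 ± 8.68 CPM in controls. The chromosome 6 cluster was thus the minor source of the family's counts, between 6.16% and 10.8% in the 26 libraries.

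The log2 ratio of the chromosome 4 to the chromosome 6 sum was 3.48 ± 0.28 in swim dHC and 3.70 ± 0.11 in swim vHC, and 3.37 ± 0.17 in control dHC and 3.56 ± 0.26 in control vHC (SD). The regions differed in this ratio by -0.22 after swim and by -0.19 in controls, and the ranges overlapped in both. These differences were smaller than the SD of the more variable group and larger than that of the other. Within blocks the swim difference ran from -0.44 to -0.02 and the control difference from -0.27 to -0.19. Between the near-identical relatives mir-200b and mir-200c the gap was wider: their log2 ratio was 2.53 ± 0.26 in swim dHC and 2.96 ± 0.10 in swim vHC, and 2.40 ± 0.22 and 2.86 ± 0.24 in control dHC and vHC. The differences, -0.43 and -0.46, were larger than the SD of each group, and the ranges overlapped. These ratios are descriptions over chosen members, without a test.

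The fitted differences between processing blocks did not share 1 direction over the members, nor within the chromosome 4 cluster. Between the 3 blocks, 246 of 463 entries (53.1%) had an adjusted p under 0.05 in edgeR. A call between blocks was thus not particular to the family. Among the members, mir-429 was lower than in block 1 by log2 differences of -0.76 in block 2 and -0.88 in block 3 (adjusted p = 0.00017), and mir-141 by -0.56 and -0.68 (adjusted p = 0.022). For mir-200a the differences were 0.33 and 0.41, in the opposite direction, with an adjusted p of 0.078. For mir-200b and mir-200c they were between -0.38 and -0.03 (adjusted p = 0.20 and 0.070). The call of mir-141 was lost with DESeq2 (adjusted p = 0.052), and mir-200a was called at adjusted p = 0.011 with DESeq2 and, in edgeR, at 0.023 with DESeq2's size factors, 0.025 with TMMwsp and 0.046 with no filter on low counts.

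Among the member ratios computed, block was clearest in that of mir-200a to mir-429, neighbours in the same cluster. Its log2 value was between -0.65 and -0.31 in the 10 libraries of block 1, between 0.49 and 0.86 in block 2 and between 0.53 and 1.12 in block 3 (8 libraries each). Block 1 therefore stood apart from both others in 26 of 26 libraries, whichever the region or condition. How many other pairs of entries set block 1 apart was not counted. Since 246 of 463 entries (53.1%) differed between blocks, this is not shown to be particular to these members. Within blocks, the difference in this ratio between dHC and vHC ran from -0.16 to 0.21 after swim and from -0.04 to 0.13 in controls, without one direction in all blocks. The difference between swim and control ran from 0.01 to 0.17 in dHC and from 0.04 to 0.13 in vHC. These within-block values rest on 2 to 4 libraries a group and were not tested. In block 1 the count of mir-200a was below that of mir-429 in 10 of 10 libraries, and in blocks 2 and 3 above it in 16 of 16.

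**Figure D4:**
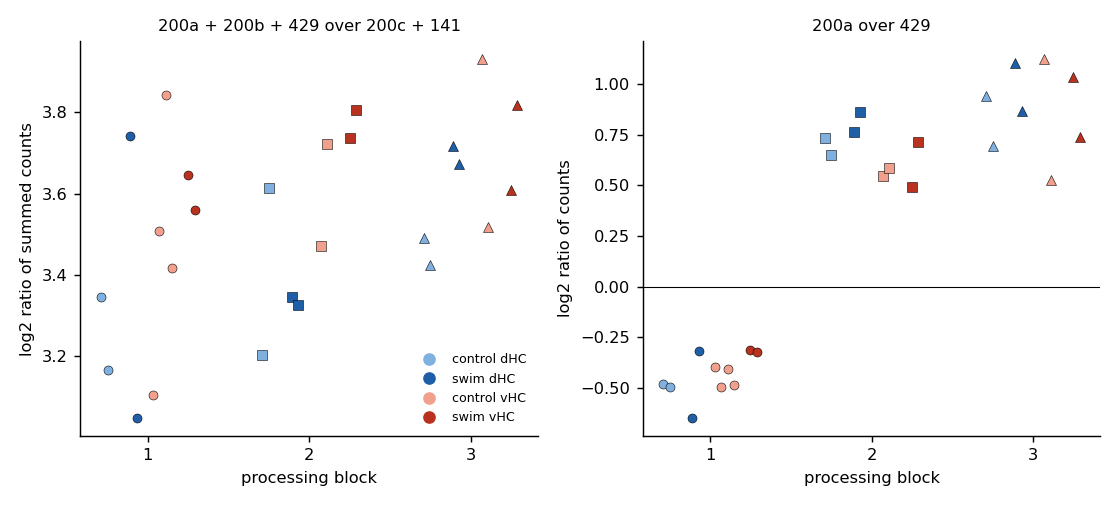
Log2 ratio of the summed counts of the chromosome 4 and chromosome 6 clusters (left) and of mir-200a to mir-429 (right) in each of the 26 libraries by processing block, colored by group. On the right the 10 libraries of block 1 are at or below -0.31 and the 16 of blocks 2 and 3 at or above 0.49.

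The members went up and down together from library to library. On log2 CPM with block means subtracted, Pearson's r over the 26 libraries was 0.98 between mir-200a and mir-429 and 0.90 between mir-200a and mir-200b. Across clusters it was 0.96 between mir-200b and mir-200c and 0.84 between mir-200a and mir-141, against 0.74 between mir-200c and mir-141 of the same cluster. With group means subtracted as well, which removes the region difference, r was 0.93 for mir-200a with mir-429, 0.75 for mir-200b with mir-200c, 0.66 for mir-200a with mir-141 and 0.46 for mir-200c with mir-141. The libraries share their scaling, and the pairs across clusters share divided reads, so these values are descriptions.

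Measured against the summed level of the chromosome 4 cluster with block means subtracted, mir-200c of the other cluster ranked at position 4 of 463 entries (r = 0.94), behind the 3 members of the sum, and mir-141 ranked at position 17 (r = 0.82). These ranks carry the region difference by which the family was chosen. Reads were also divided between mir-200c and mir-200b, and between mir-141 and mir-200a, which are parts of the sum. The non-members with the most similar pattern over the 26 libraries were mir-592 (r = 0.91), in an exon of the glutamate receptor gene Grm8, mir-708 (r = 0.89), in an intron of the teneurin gene Tenm4, and mir-31 (r = 0.89), in an exon of a long noncoding RNA. They were followed by mir-6540 (r = 0.88), in an intron of Gap43, a growth cone protein gene, and mir-335 (r = 0.87), in an intron of the imprinted gene Mest.

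These 5 were also lower in dHC after swim, by log2 differences of -0.79 (mir-592), -0.77 (mir-708), -0.98 (mir-31), -1.43 (mir-6540) and -1.03 (mir-335). Their levels ranged widely, as mir-335 averaged 2175 CPM in swim dHC and 4480 CPM in swim vHC, and mir-6540 averaged 23.5 and 62.4 CPM. With group means subtracted too, their r with the cluster sum was between 0.17 and 0.44. Between pairs of members, which is a different measure, r was then between 0.46 and 0.93. Since the similarity was measured over all 26 libraries, their region difference is part of what chose them.

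Other miRNAs known from epithelia and sensory neurons were read beside the family. Of 7 on this list 5 were tested after swim, of which 1 was lower in dHC and 0 higher, with a median log2 difference of -0.04. The one called was mir-31, which was also the most abundant. The others tested differed by -0.25 (mir-203, an epidermal miRNA), -0.04 (mir-183), 0.37 (mir-182) and 0.24 (mir-375, known from endocrine cells), none past the threshold, and mir-205 and mir-96 were below the filter, at mean levels of 2.32 and 1.44 CPM.

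The choroid plexus is a ciliated epithelium that lies next to the hippocampus. Of 7 miRNAs known from choroid plexus and ciliated cells 5 were tested, with 0 lower and 2 higher in dHC and a median log2 difference of 0.50. Over the 463 entries tested 59 were lower and 35 higher. Any part of choroid plexus in the family's difference was not tested. The called ones were mir-449a (0.89, adjusted p = 0.0034) and mir-34b (0.50, adjusted p = 0.029, both edgeR), known from motile cilia. The most abundant, mir-204, differed by 0.38 without passing (adjusted p = 0.20), and mir-449b and mir-449c were at or near 0, with at most 1 count in a library. The summed level of the list was 2457 to 4595 CPM in swim dHC and 2358 to 3243 CPM in swim vHC, and 3087 to 5935 and 2164 to 3281 CPM in the control groups.

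Of the other lists, 3 of 3 oligodendrocyte miRNAs were higher in dHC after swim, mir-219a-1 by 0.97, mir-219a-2 by 0.70 and mir-338, the most abundant of them, by 0.36. Their summed level was 4578 to 6941 CPM in swim dHC and 3638 to 4714 CPM in swim vHC, and its part in the family's difference was not tested. Among 4 erythroid miRNAs 1 was lower, mir-486a by -0.42 (adjusted p = 0.047 with edgeR), and mir-451a, the most abundant, differed by -0.09. The call of mir-486a is uncertain, because its near-identical copy mir-486b differed by -0.40 without passing (adjusted p = 0.065 with edgeR). Of 3 endothelial and mural miRNAs 0 passed (mir-143 -0.23), nor did any of the 4 microglial and immune miRNAs matched by name of 5 (mir-150 -0.08). The fifth, mir-142, is named mmu-mir-142a in the table and differed by 0.12 (adjusted p = 0.73 with edgeR). Of the 8 neuronal entries 0 passed (mir-9-2 -0.03).

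**Figure D5:**
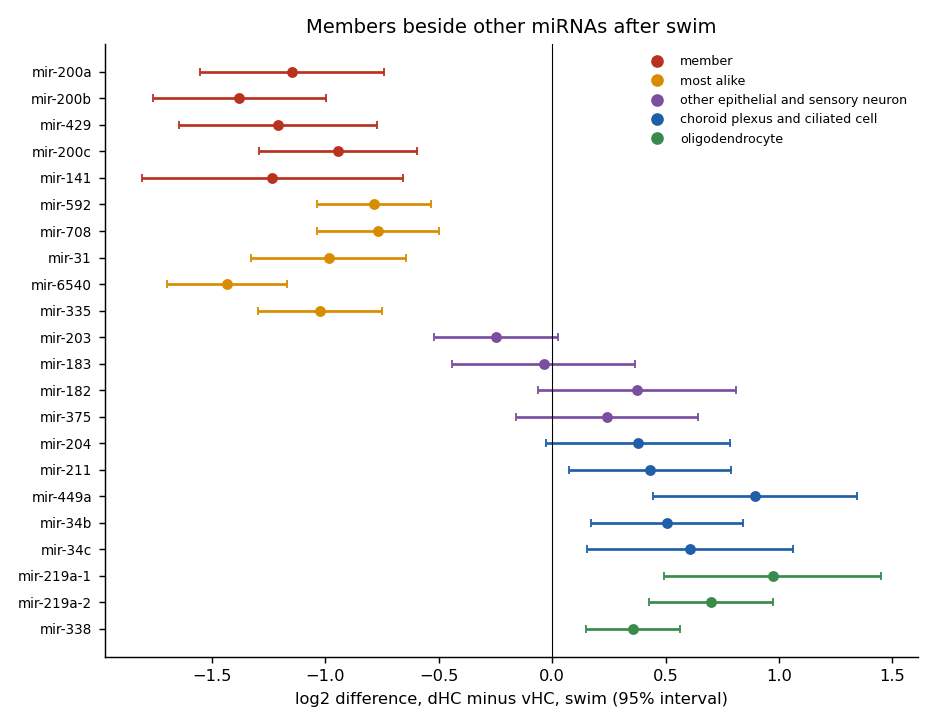
Log2 difference between dHC and vHC after swim with its 95% interval for the 5 members, the 5 miRNAs with the most similar pattern, and the tested miRNAs of the epithelial, choroid plexus and oligodendrocyte lists. Members lie between -1.38 and -0.94, choroid plexus and oligodendrocyte miRNAs between 0.36 and 0.97.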

How the data were processed

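Small RNA libraries were made by the authors with the Nextflex v3 kit, and reads were assigned to short RNA annotations on GRCm38. The authors deposited expected counts, of which 29.5% were not whole, and these were rounded for the tests. Levels are CPM of the unrounded counts with TMM-scaled library sizes, summed over the miRNA entries. Differences were tested with edgeR 4.0.16 in R 4.3.3 (quasi-likelihood test, filterByExpr with a minimum count of 10 and a minimum total of 15) over 463 of 1054 entries, in all 26 libraries, with group and block as terms, Benjamini-Hochberg adjustment and a threshold of 0.05. The procedure was tested on simulated data. Alternatives were DESeq2 1.42.0, its size factors, TMMwsp, library sizes over the whole table, no filter, 2 surrogate variables (sva 3.50.0) or no covariate in place of block, and each library left out. Named miRNAs were the 5 members, the 5 non-members most correlated with the summed chromosome 4 cluster, and in each list those called after swim plus the most abundant. Other list miRNAs were named after their values were seen. The members and lists were chosen with earlier results of these data known.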

Additional observations from a re-analysis of the deposited data

How the results depend on the processing

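After swim, all 5 members stayed lower in dHC and past the threshold under DESeq2, DESeq2's size factors, TMMwsp, library sizes over the whole table, no filter, no covariate and with each of the 26 libraries left out in turn. With 2 surrogate variables 1 of 5 did (-1.93 for mir-200a, and -0.85, -1.01, -0.77 and -0.68 for mir-200b, mir-429, mir-200c and mir-141, not past it). The count of entries called was 59 with surrogate variables and 56 with no covariate, and 77 to 109 with a library left out. The control differences moved to -1.77 (mir-200a) and -1.12 (mir-200b) with surrogate variables. Within block 1 the swim difference was -1.69 for mir-200b and -1.14 for mir-200c, and within block 3 -0.68 for mir-200a. The cluster ratio difference of -0.22 became -0.44 within block 2 and -0.019 within block 3, and -0.43 for mir-200b over mir-200c alone (-0.46 in controls). The cause of these shifts was not tested.

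Values near 0 changed sign without passing the threshold. The interaction of mir-429 became 0.062 with surrogate variables, and with a library left out it ran from -0.34 to 0.022, that of mir-200a from -0.28 to 0.037. For swim in dHC, mir-429 became -0.034 with no covariate and ran from -0.057 to 0.26, and mir-141 from -0.29 to 0.12. For swim in vHC, mir-200b ran from -0.027 to 0.13 and mir-200c from -0.11 to 0.0087. Between blocks 1 and 2, mir-200b became 0.056 with DESeq2, 0.055 with its size factors and 0.023 with TMMwsp, and ran from -0.066 to 0.13. The block call of mir-141 was lost without control dHC library 8 (adjusted p = 0.096), control vHC library 7 (0.075) or swim dHC library 16 (0.059, all edgeR). The block difference of mir-200a was called in 12 of the 26 fits with 1 library left out, and that of mir-200c without swim dHC library 6 (adjusted p = 0.044) and with library sizes over the whole table (0.048). The labels do not tie libraries to mice, but 12 vHC libraries have a dHC library of the same condition and block with the next number. With these 12 pairs as a replicate block, a fit chosen after seeing the data, 120 entries were called after swim and 5 of 5 members, with log2 differences of -1.16 (mir-200a), -1.39 (mir-200b), -1.21 (mir-429), -0.95 (mir-200c) and -1.27 (mir-141). For the interaction this fit also called 0 entries, and swim against control and block were not tested in it. Each member was lower in the dHC library of 6 of 6 swim pairs, as were 64 of 463 entries (13.8%). The same held in 6 of 6 control pairs, as for 75 of 463 entries (16.2%). The deviations of partners from their group and block correlated at -0.49 to 0.38 over entries, above 0.1 in 4 of 12 pairs. In 8 of 12 pairs the vHC library correlated better with its partner than with the other dHC library of its condition and block. Whether the numbers pair the samples was not settled by these values, and they were not taken to do so. Depth limits mir-141 most.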
